A study of Sus scrofa with 12 samples.

Results

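The genes described here are those whose symbol is ZNF followed by a number, the symbol given to zinc finger proteins that have no more specific name. Of 219 such genes in the deposited peak table, 188 have at least 1 peak listed under no other gene. These 188 members carry 605 of the 21450 single-gene peaks, and they stand among 9325 genes with a peak of their own. The other 31 appear only in peaks shared with neighbouring genes and were not counted as members. The 188 members carry 183 symbols, since ZNF14, ZNF211, ZNF283, ZNF684 and ZNF77 each belong to 2 gene identifiers. For 154 members the reference table gives the same symbol and for 32 it gives none. ZNF70 and ZNF282 are listed there as VPREB3 and ZNF212.

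The libraries came from IPEC-J2, an epithelial cell line from the pig small intestine, with the genotype label WT. Cells in DMEM/F12 with serum received 25 µM OAA or, as CON, 0 µM for 24 h. By the series title, OAA is 2-oxindole-3-acetic acid, a compound of the indole family. Fragmented RNA was sequenced with and without capture by an antibody against N6-methyladenosine (m6A), giving 12 libraries in 4 groups of 3: OAA labelled input, CON labelled input, OAA labelled IP and CON labelled IP.

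Which libraries were captured is uncertain, and the library codes do not name the captured part. The titles label each library as input or IP. Yet the authors' log2 ratios, labelled input over labelled IP, had a median of 3.99 in CON over all single-gene peaks. The libraries labelled input held 16491095 to 23010413 reads in peaks, and those labelled IP held 3709352 to 4607452. Groups follow the labels here, and the peak ratio is labelled input over labelled IP on a log2 scale, the direction of the authors' own log2 ratios. If the titles are right about which part was captured, the ratio's sign as a measure of enrichment turns. By their column codes, the deposited FPKM values belong to the 6 libraries labelled IP. All 7 measured epithelial markers reached 1 FPKM, with EPCAM at 196 FPKM and CDH1 at 129 FPKM. Of 8 measured enterocyte markers, SI (12.8 FPKM) and APOA1 (4.57 FPKM) did so, while VIL1 was at 0.246 FPKM and CDX2 at 0.0237 FPKM. None of 5 goblet and none of 6 fibroblast markers did, against 1 of 6 leukocyte markers (LYZ at 27.4 FPKM, with PTPRC at 0) and all 3 measured endothelial markers (CDH5 at 3.78 FPKM).

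Most ZNF proteins hold arrays of C2H2 fingers, in which a pair of cysteines and a pair of histidines grip a zinc ion and the finger reads a short stretch of DNA. Many of those in mammals also carry a KRAB domain, which recruits TRIM28 (KAP1) and through it the histone methyltransferase SETDB1, and which serves largely to silence transposable elements. KRAB zinc finger genes multiplied by tandem duplication and lie in clusters of similar copies. m6A is the most common internal modification of mRNA. It is written by the METTL3 and METTL14 complex, is typically densest in long internal exons and near stop codons, and is read by proteins such as YTHDF2, which promotes decay of the RNA. By the deposited annotation, 80 of the 188 members fall in the KEGG ortholog group of KRAB domain zinc finger proteins and 108 do not. The factor family label is zf-C2H2 for 169 members and ZBTB for 1 (ZNF131), and 18 have no such label. KRAB members are here the genes of that KEGG group, and no protein was searched for the domain itself. A gene outside the group may therefore carry the domain, and a gene inside it may lack it. No sequence is printed here, and fingers and linkers were not analysed.

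The ZNF members had lower FPKM than most genes with a peak. These FPKM belong to the libraries labelled IP, so if that label is right they come from captured RNA and are not plain expression levels. Their median was 2.67 FPKM (mean over the 6 libraries), against 10.7 FPKM over all genes with a peak of their own. FPKM is per length of transcript, so values of different genes can be set side by side. Of the 188 members, 144 (76.6%) reached 1 FPKM and 28 (14.9%) reached 10 FPKM, against 89.4% and 52.0% of all genes with a peak of their own. The KRAB members had a median of 1.51 FPKM, and 5 of 80 reached 10 FPKM. The other members had a median of 3.90 FPKM, and 23 of 108 did. The difference between these sets was not tested.

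The 8 ZNF genes with the highest levels held 1 KRAB member. ZNF664 came first, with 60.3, 61.5 and 62.4 FPKM in OAA and 65.9, 63.3 and 62.1 FPKM in CON. ZNF207 (BuGZ), which binds microtubules and the checkpoint protein BUB3 at kinetochores, had 41.0, 41.0 and 37.6 FPKM in OAA and 38.9, 39.3 and 40.3 FPKM in CON. No ZNF664 value overlapped with a ZNF207 value. The next 3 did not separate from each other. ZNF511 averaged 28.9 ± 3.66 FPKM in OAA and 27.5 ± 0.566 FPKM in CON (SD, n = 3 each). ZNF622, a factor of large ribosomal subunit maturation, averaged 26.7 ± 1.12 FPKM in OAA and 27.4 ± 0.830 FPKM in CON (SD, n = 3 each). ZNF326, a factor that links transcription to splicing, averaged 27.5 ± 1.90 FPKM in OAA and 26.2 ± 0.226 FPKM in CON (SD, n = 3 each). ZNF330 (23.5 FPKM), a nucleolar protein, ZNF277 (21.4 FPKM) and ZNF16 (19.4 FPKM), the KRAB member, followed. A further 50 ZNF genes, named by the reference table, are in the FPKM table and have no entry in the peak table used here. Their median was 0.0143 FPKM, 12 of them are listed at 0 in all 6 libraries, and only ZNF143 (13.4 FPKM), a promoter-binding activator, and ZNF346 (3.72 FPKM) reached 1 FPKM. ZNF143 therefore has no peak ratio here, and ZNF750 has no entry in either table used here.

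In CON cells, ZNF genes stood towards the labelled-input side of the peak ratio. Of 186 members tested, 125 (67.2%) were higher in the libraries labelled input, 19 (10.2%) were lower and 42 passed in neither direction. Over all 8936 genes tested, 39.3% were called higher and 38.7% lower. The median log2 ratio was 0.77 for the members and 0.01 for all genes, with a quartile range of 0.21 to 1.23 for the members and -0.91 to 0.88 for all genes. KRAB members were higher in 56 and lower in 3 of 79 tested (median 0.83). The other members were higher in 69 and lower in 16 of 107 tested (median 0.65). These sets also differed in FPKM, with which the ratio fell, and they are set side by side by level below. Scaling sets the ratio of a typical gene near 0, so each ratio is relative to the other genes and does not measure how much of an mRNA is methylated. The calls come from edgeR's quasi-likelihood test on reads summed over each gene's own peaks, with a Benjamini-Hochberg adjusted p under 0.05 over all genes. Nothing in the labels says that the replicates were separate cultures, so p-values measure only how far these samples vary, which can be a technical spread.

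**Figure D1:**
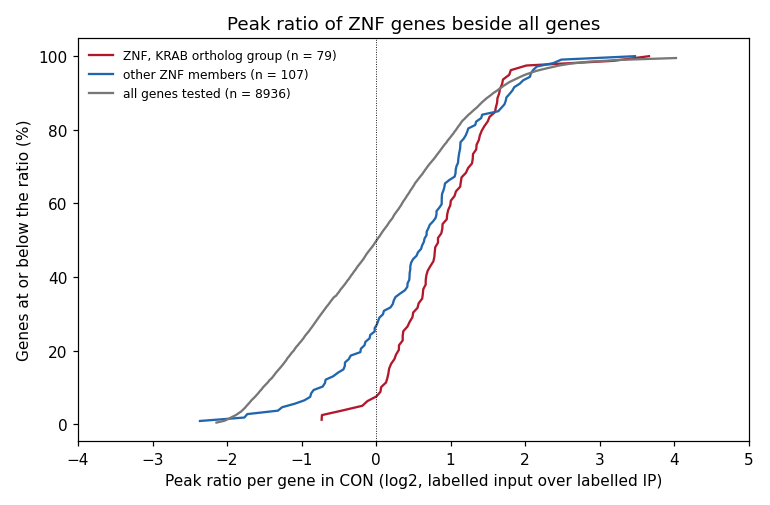
Cumulative share of genes (%, vertical axis) at or below a log2 peak ratio in CON (labelled input over labelled IP, horizontal axis), for 79 KRAB members, 107 other ZNF members and 8936 genes tested. The curves of both ZNF sets lie right of the all-gene curve over most of the range, with medians of 0.83, 0.65 and 0.01.

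As a share of all reads in single-gene peaks, ZNF peaks took 1.52% ± 0.00592 in OAA and 1.54% ± 0.0290 in CON libraries labelled input, and 0.992% ± 0.0389 in OAA and 1.02% ± 0.0213 in CON libraries labelled IP (SD, n = 3 each). Each of the 6 libraries labelled input was above each of the 6 labelled IP. In reads, ZNF peaks received 225395 to 306594 per library labelled input and 31197 to 38841 per library labelled IP. The depth of the libraries labelled IP is the limit for single members: 5 members had 10 or fewer reads in all CON libraries labelled IP together.

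The ratio was lower in genes of higher level, among the members and among all genes. Among members under 1 FPKM, 30 of 43 were called higher (69.8%) and 0 lower, against 69.0% higher and 2.17% lower over all 738 genes at that level. From 1 to under 5 FPKM, 62 of 84 members (73.8%) were called higher and 2 lower, against 55.9% and 14.4% of 1796 genes. At 5 FPKM or more, 33 of 59 members (55.9%) were called higher and 17 (28.8%) lower, against 30.1% and 51.5% of 6122 genes. The median ratio in these 3 classes was 1.14, 0.79 and 0.31 for members and 1.39, 0.53 and -0.40 for all genes. For the KRAB members it was 1.13, 0.79 and 0.47 (26, 37 and 16 tested). For the other members it was 1.22, 0.81 and -0.02 (17, 47 and 43 tested). The KRAB median thus stood above that of the other members only at 5 FPKM or more. Spearman's rho between ratio and FPKM was -0.44 over 186 members and -0.52 over 8656 genes. It is a description, and both measures draw on the libraries labelled IP.

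**Figure D2:**
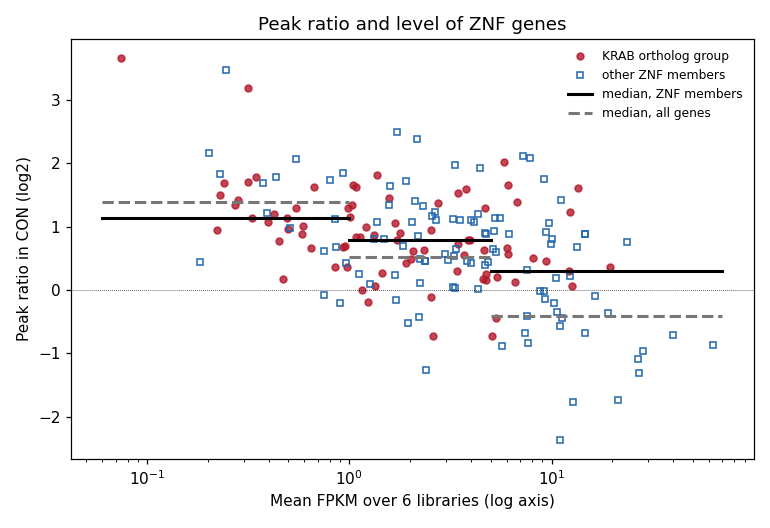
Log2 peak ratio in CON (vertical axis) against mean FPKM over 6 libraries (horizontal log axis), 1 point per ZNF gene, filled circles for KRAB members and open squares for the others. Black lines are medians of ZNF members in 3 level classes (1.14, 0.79 and 0.31) and dashed grey lines those of all genes (1.39, 0.53 and -0.40).

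The highest ratios included a pair of related co-repressors of the NET family, ZNF503 and ZNF703. ZNF503 had 14.4, 17.9 and 17.9 CPM (counts scaled to library size) in the libraries labelled input and 1.99, 1.01 and 1.53 CPM in those labelled IP, a log2 ratio of 3.48 ± 0.30 (SE, adjusted p = 7.3e-09 by edgeR). ZNF703, whose human gene is amplified in luminal breast cancers, had 108, 87.3 and 104 CPM in the libraries labelled input and 15.3, 20.7 and 17.1 CPM in those labelled IP, a ratio of 2.49 ± 0.13 (SE, adjusted p = 1.1e-11). Both groups of 3 were well apart for each gene. The KRAB member ZNF177 had 10.7, 7.3 and 12.7 CPM in the libraries labelled input and 2.27, 0.506 and 0.612 CPM in those labelled IP, a ratio of 3.18 ± 0.44 (SE). The SCAN domain members ZNF496 (2.11) and ZNF174 (1.93), and ZNF579 (2.38), ZNF789 (2.08), ZNF777 (2.02) and ZNF581 (1.85), completed this end together with ZNF469. ZNF469, mutated in brittle cornea syndrome in humans, had 854, 862 and 900 CPM in the libraries labelled input and 216, 222 and 227 CPM in those labelled IP, a ratio of 1.98 ± 0.05 (SE, adjusted p = 1.54e-15). The ranking drew on 113 members called higher and 18 called lower that met its rule. That rule was at least 5 CPM in the higher group and no overlap between the groups. How many of all genes met it was not counted, so these numbers show nothing particular to the members.

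The lowest ratios held no KRAB member. ZNF706 had 27.8, 19.6 and 26.5 CPM in the libraries labelled input and 121, 135 and 127 CPM in those labelled IP, a log2 ratio of -2.36 ± 0.12 (SE, adjusted p = 4.54e-12 by edgeR). ZNF32 (-1.77) and ZNF277 (-1.73) followed. ZNF622, the ribosome maturation factor, had 62.3, 65.7 and 77.4 CPM in the libraries labelled input and 178, 168 and 167 CPM in those labelled IP, a ratio of -1.32 ± 0.09 (SE, adjusted p = 2.29e-10). ZNF428 (-1.26), ZNF326 (-1.09), ZNF511 (-0.96), ZNF580 (-0.88), ZNF664 (-0.87) and ZNF524 (-0.84), which binds telomeric DNA in human cells, completed this end. Of the 8 ZNF genes with the highest FPKM, 5 were therefore among the 10 lowest ratios. ZNF330 (0.76) and ZNF16 (0.36) were called higher, and ZNF207 was called in neither direction. ZNF580 and ZNF581, which sit in the same cluster on chromosome 6, were called in opposite directions, at -0.88 and 1.85.

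**Figure D3:**
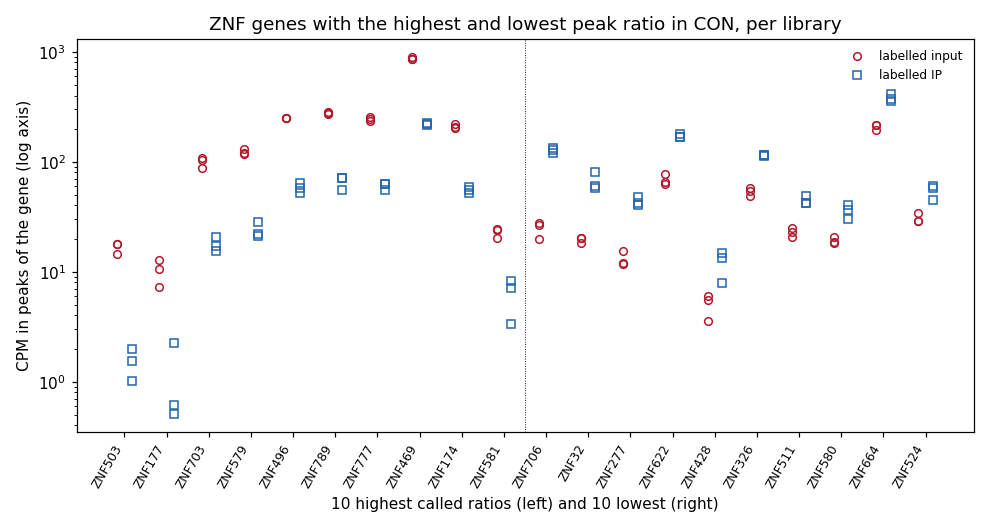
CPM in the peaks of each gene (vertical log axis) in the 3 CON libraries labelled input (circles) and the 3 labelled IP (squares), for the 10 highest (left of the dotted line) and 10 lowest (right) called ratios. Circles and squares of a gene do not overlap, with ratios of 3.48 to 1.85 on the left and -2.36 to -0.84 on the right.

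By role, members that act in co-repressor or histone-modifying complexes were called higher in 10 and lower in 1 of 15 tested (median 0.68), against 39.3% and 38.7% of all genes. Over all 186 members tested, 67.2% were called higher and 10.2% lower (median 0.77), so the list stood close to the members as a whole. The list also held ZNF518A, ZNF518B and ZNF512B, whose symbols carry a letter and which are no members, with ratios of 0.36, 0.85 and -0.63, each past the test. ZNF217, a partner of the CtBP and CoREST complexes whose mouse counterpart also binds METTL3, had 655, 657 and 644 CPM in the libraries labelled input and 239, 234 and 257 CPM in those labelled IP, a ratio of 1.42 ± 0.05 (SE, adjusted p = 1.06e-13 by edgeR). ZNF462 (1.79), ZNF516 (1.34), which works with CtBP and LSD1, and ZNF445 (1.24), which maintains imprints together with ZFP57, were higher. ZNF827 (1.07), ZNF521 (0.68), ZNF318 (0.47) and ZNF687 (0.22) were also called higher. Of the members, only ZNF644, which guides the histone methyltransferases G9a and GLP, was called lower, with 111, 143 and 120 CPM in the libraries labelled input and 163, 163 and 146 CPM in those labelled IP, a ratio of -0.34.

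Promoter-binding members were called higher in 4 and lower in 3 of 9 tested (median -0.37), shares close to the 39.3% and 38.7% of all genes. ZNF281, a regulator of stemness and of epithelial-mesenchymal transition, had 663, 677 and 653 CPM in the libraries labelled input and 208, 196 and 188 CPM in those labelled IP, a ratio of 1.75 ± 0.06 (SE, adjusted p = 1.25e-14 by edgeR). ZNF148 (ZBP-89), its close relative, had 299, 328 and 288 CPM in the libraries labelled input and 170, 195 and 160 CPM in those labelled IP, a ratio of 0.80. ZNF263 (1.10) and ZNF202 (0.92) were also higher. ZNF384 (-0.69), ZNF410 (-0.44), whose main known target gene is CHD4, and ZNF24 (-0.37) were lower.

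Members with roles in RNA, ribosomes, ubiquitin or the spindle were called higher in 4 and lower in 4 of 10 tested (median -0.30), shares close to the 39.3% and 38.7% of all genes. ZNF598, the ubiquitin ligase that senses collided ribosomes, had 112, 100 and 103 CPM in the libraries labelled input and 163, 147 and 160 CPM in those labelled IP, a ratio of -0.57 ± 0.08 (SE, adjusted p = 1.9e-06 by edgeR). ZNF706, ZNF622 and ZNF326, described above, were also lower. ZNF385A, on the list but no member, had a ratio of -1.20 and passed as lower. ZNF830 (1.10), ZNF330 (0.76), ZNF106 (0.32) and the SUMO ligase ZNF451 (0.19) were higher, the last with an adjusted p of 0.037 that did not hold under 5 alternatives. ZNF207 had 2.14, 5.18 and 3.97 CPM in the libraries labelled input and 4.26, 6.83 and 7.34 CPM in those labelled IP, groups that overlapped (ratio -0.72 ± 0.38, adjusted p = 0.0966). These reads lay in its only own peak, in the 5′ UTR, so the ratio describes that peak and not the whole transcript. Without CON labelled input replicate 2 the ratio of ZNF207 was -0.96 and its adjusted p 0.0377 by edgeR. ZNF593, a ribosome export factor, was not tested in CON, with 56 reads over the libraries labelled input and 2 over those labelled IP, at 6.83 FPKM. In OAA, its peaks received 84 reads with the label input and 0 with the label IP.

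Single peaks showed where on the transcript the members' reads lay. Of 605 ZNF peaks, 47.8% were annotated to coding sequence, against 25.5% of all single-gene peaks. Stop codon peaks made up 26.9% against 25.2%, start codon peaks 9.26% against 21.5%, 3′ UTR peaks 11.9% against 17.8% and 5′ UTR peaks 4.13% against 7.17%. KRAB members had 113 of their 222 peaks in coding sequence, 71 at the stop codon and 8 at the start codon. The other members had 176 of 383 in coding sequence, 92 at the stop codon and 48 at the start codon. A member had a median of 3 peaks, and all genes a median of 2. The most, 15, lay on ZNF318, and 38 members had 1. ZNF peaks spanned a median of 275 bp and all single-gene peaks 300 bp, and 11 ZNF peaks spanned over 10000 bp. No test of these shares was made.

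Of 568 ZNF peaks tested in CON, 271 were called higher and 81 lower. Over all 23366 peaks tested, 34.9% were called higher and 34.6% lower. Peaks and genes were scaled apart, so their ratios are not on one scale: for the same reads, the gene's ratio minus the peak's had a median of -0.26 over 36 members with 1 peak and of -0.26 over 3289 such genes. With scaling by library size alone, 214 ZNF peaks were higher and 126 lower. The shares of all peaks under that scaling are not given here, and those above are with TMM scaling. The median ratio of ZNF peaks was 0.84 at stop codons (92 higher and 16 lower of 158), 0.68 at start codons (28 and 11 of 53), 0.57 in the 5′ UTR (3 and 2 of 17), 0.43 in coding sequence (123 and 39 of 274) and 0.37 in the 3′ UTR (25 and 13 of 66). Over all single-gene peaks the medians at these locations were 0.37, -0.19, 0.36, -0.04 and -0.26. In the same order, 48.3%, 25.4%, 36.7%, 34.3% and 27.4% of them were called higher. The shares called lower were 31.1%, 34.9%, 19.1%, 36.2% and 40.6%. In the 5′ UTR the share of ZNF peaks called higher, 17.6%, was below that of all single-gene peaks. KRAB members had medians of 1.03 at stop codons, 0.75 in coding sequence and 0.54 in the 3′ UTR. The other members had 0.63, 0.28 and -0.18. These medians by location were not taken at like FPKM.

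**Figure D4:**
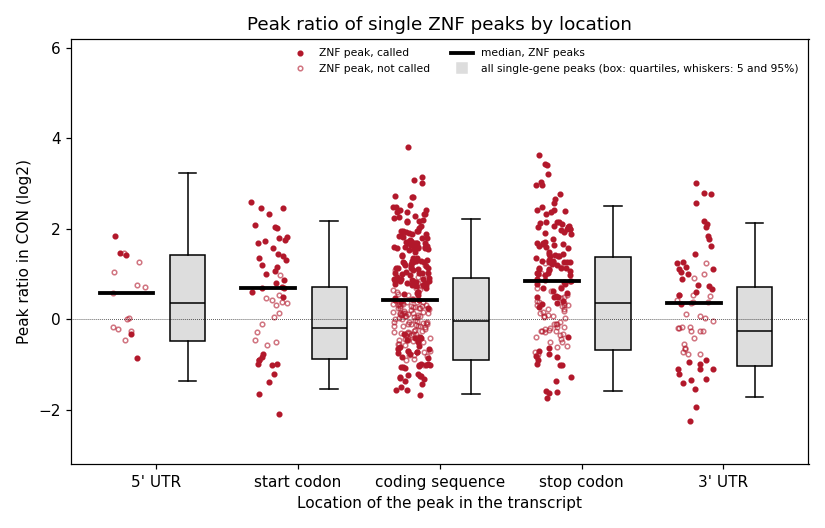
Log2 peak ratio in CON (vertical axis) of single ZNF peaks by location in the transcript (horizontal axis), filled where called, with the ZNF median as a bar and quartiles of all single-gene peaks as grey boxes (whiskers at 5 and 95%). The ZNF medians run from 0.37 in the 3′ UTR to 0.84 at stop codons and lie above the all-peak median at each of the 5 locations.

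Locations were also compared within a gene. In 91 members with both kinds of peak, the mean ratio at the stop codon exceeded that in coding sequence in 47, with a median difference of 0.06. It exceeded the start codon in 25 of 37 members (median difference 0.31) and the 3′ UTR in 23 of 34 (0.70). Of 94 members with 3 or more tested peaks, 39 (41.5%) had peaks called in both directions, 49 (52.1%) only higher, 5 (5.32%) only lower and 1 none. Of all 2842 genes with 3 or more tested peaks, 48.8% had peaks called in both directions, 30.2% only higher and 18.6% only lower. The range between the lowest and highest peak of a gene had a median of 2.15 on the log2 scale among the members and 2.15 among all these genes.

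ZNF217, whose 8 peaks covered a range of 4.43, had peaks of both directions. Its coding sequence peak at chr17:54612312-54613061 had 456, 461 and 451 CPM in the libraries labelled input and 55.0, 55.2 and 60.3 CPM in those labelled IP, a ratio of 3.01 ± 0.07 (SE, adjusted p = 3.26e-20 by edgeR). This 1 peak held most of the gene's reads in the libraries labelled input. A neighbouring coding sequence peak at chr17:54611912-54612236 had 16.7, 20.7 and 14.3 CPM in the libraries labelled input and 26.2, 26.0 and 28.9 CPM in those labelled IP, a ratio of -0.65. The start codon peak of ZNF217 was higher (1.07), and another peak in coding sequence (0.78) was too. A 75 bp coding sequence peak at chr17:54619018-54619092 (-1.43) and a 3′ UTR peak at chr17:54607868-54608017 (-1.34) were lower. The 2 remaining peaks were called in neither direction. Peak positions are those of the deposited table with starts counted from 1, and its genome build is not given in the sources used here.

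ZNF148 had 1 peak higher and 3 lower of 4 tested. Its stop codon peak at chr13:135088091-135089040 had 239, 256 and 232 CPM in the libraries labelled input and 59.0, 78.1 and 60.8 CPM in those labelled IP, a ratio of 1.87 ± 0.09 (SE). The other 3 tested peaks, 2 in coding sequence and 1 at the start codon, were lower, from -1.08 to -0.39. All 4 peaks of ZNF281 were higher, from 0.73 in coding sequence to 2.97 at the stop codon, at chr10:23036146-23036570, where the libraries labelled input had 327, 321 and 323 CPM and those labelled IP 49.0, 36.8 and 37.8 CPM. Both peaks of ZNF703 were higher, at 2.78 at the stop codon and 2.72 in coding sequence. Both peaks of ZNF622 were lower, at -1.20 at the start codon and -1.01 in coding sequence. ZNF598 had 1 peak called higher, at the stop codon (0.49), and 3 lower, of 5 tested.

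Among single peaks of at least 5 CPM, the highest called ratios were those of ZNF503 in coding sequence (3.82, chr14:77926120-77926594) and at the stop codon (3.64, chr14:77925220-77925669). These peaks rest on 7 and 9 reads in the 3 libraries labelled IP together. ZNF177 (3.44, 12 reads labelled IP) and ZNF579 followed at their stop codons. The ZNF579 peak at chr6:59703183-59703882 had 78.4, 87.2 and 74.1 CPM in the libraries labelled input and 7.54, 5.96 and 9.33 CPM in those labelled IP, a ratio of 3.40 ± 0.15 (SE, adjusted p = 1.95e-15 by edgeR). The gene listed as ZNF282 (3.21 at the stop codon), ZNF420 (3.14 in coding sequence) and ZNF469, with 3.08 in coding sequence and 3.03 at the stop codon, completed the 8. The lowest were a 3′ UTR peak of ZNF655 (-2.25), the only peak of ZNF706, at its start codon (-2.10), a 50 bp 3′ UTR peak of the KRAB member ZNF250 (-1.95) and the stop codon peak of ZNF326 (-1.74). ZNF655, with 2 peaks higher and 2 lower of 5 tested, and ZNF282, with 6 higher and 1 lower of 7, also held peaks of both directions.

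The members were spread unevenly over the genome. Chromosome 6 held 55 of 188 (29.3%), chromosome 3 held 27 and chromosome 2 held 18. Joining members whose gaps were 500000 bp or less gave 7 clusters of at least 5. The largest, at chr3:16958561-17936471, held 10 members, 5 of them KRAB members, with 9 called higher in CON, 0 lower and a median ratio of 1.15. The exception was ZNF768, with the highest FPKM of the cluster at 12.6, with a ratio of 0.06 ± 0.07 (SE, adjusted p = 0.455). Its neighbours ZNF764 (1.39), ZNF689 (1.52), ZNF668 (1.20) and ZNF629 (1.18) were higher. The second cluster of chromosome 3, at chr3:38807733-39106615, held 5 members, all called higher, from 0.50 for ZNF205 to 1.93 for ZNF174.

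The 4 clusters of chromosome 6 differed in makeup. The cluster at chr6:45520975-46555695 held 9 members, 8 of them KRAB members, with 4 called higher and 0 lower. The cluster at chr6:50396338-51508324 held 9, with 4 higher and 1 lower (ZNF428). The cluster at chr6:59634503-59767416 held 7 members and no KRAB member, with 5 higher, 2 lower (ZNF524 and ZNF580) and a median of 1.13. The cluster at chr6:62207997-63055808 held 7, with 6 higher and 1 lower (ZNF324, -0.45). The last cluster, at chr2:66396668-67340319, held 5 KRAB members, with 3 higher and 1 lower (ZNF564, -0.73). These counts stand beside 39.3% and 38.7% over all genes. How reads that fit several genes were counted is not given in the sources used here, and the likeness of the members' sequences was not analysed. For the 10 members of a shared symbol the split of reads between copies is therefore uncertain. The copies of ZNF77 had ratios of 1.81 and 0.62, those of ZNF211 1.05 and 0.57, those of ZNF14 0.78 and 0.69, and those of ZNF684 1.63 and 0.95. The copies of ZNF283 differed most. One received 128 reads with the label input and 2 with the label IP, which after scaling gives a ratio of 13.5 (95% counting interval 3.65 to 112), and the other had a log2 ratio of 0.25 that did not pass. Without these 10 members, 116 of 176 were higher and 19 lower.

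Genes of other zinc finger families, chosen by symbol, stand here beside 39.3% higher and 38.7% lower over all genes. ZBTB genes were called higher in 24 and lower in 1 (ZBTB33) of 29 tested (82.8% and 3.45%), with a median of 0.95. Most of them lay from 1 to under 5 FPKM, where 55.9% of all genes were higher and 14.4% lower (median 0.53). Of genes named ZFP and a number, 6 of 7 were higher and 0 lower. These 7 include ZFP36 (1.29), a CCCH-type RNA-binding protein by its family label and no C2H2 factor, and without it 5 of 6 were higher. Of ZSCAN genes 4 of 6 were higher and 0 lower, and both ZKSCAN genes were higher. Genes of these 2 families were all under 5 FPKM, and under 1 FPKM 69.0% of all genes were higher and 2.17% lower. Of 24 tested partners through which KRAB proteins silence DNA, 6 were higher and 12 lower, with a median of -0.36. Most partners were at 5 FPKM or more, where 30.1% of all genes were higher and 51.5% lower (median -0.40). TRIM28 itself had a ratio of 0.06 ± 0.24 (SE, adjusted p = 0.812 by edgeR), at 123 FPKM. SETDB1 was higher (0.32) and so was the histone chaperone DAXX (0.92), while the NuRD members CHD4 (-1.93) and HDAC2 (-1.99) and the heterochromatin protein CBX5 (-1.52) were lower. No test of these lists against other genes was made.

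The ratios in OAA-treated cells were ordered much like those in CON. Of 185 tested, 128 were higher and 20 lower, against 38.0% and 38.1% of 8979 genes, with a median ratio of 0.77. Of 184 members tested under both treatments, 118 were higher in both, 18 lower in both and 0 called in opposite directions. Spearman's rho between the ratios was 0.92 over these 184. Neither the counts in both treatments nor this rho was taken over all genes, so no likeness particular to the members is shown. ZNF703 had 119, 114 and 121 CPM in OAA libraries labelled input and 24.3, 19.4 and 9.92 CPM in those labelled IP, a ratio of 2.72. ZNF706 had 20.8, 24.1 and 26.8 CPM in the libraries labelled input and 127, 147 and 127 CPM in those labelled IP, a ratio of -2.48. The ratios in OAA of ZNF217 (1.32), ZNF281 (1.80), ZNF148 (0.74), ZNF598 (-0.66) and ZNF622 (-1.10) kept their direction and passed the test, while ZNF207 (-0.21) again did not. ZNF26, ZNF70 and ZNF836 had too few reads to be tested in OAA, and ZNF836 and ZNF593 in CON.

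No ZNF gene differed between OAA and CON at an adjusted p under 0.05 in any of 4 comparisons. In the libraries labelled input, 0 of 188 members passed edgeR's test (0.0% of all 9298 genes did in either direction), and 9 members (4.79%) had an unadjusted p under 0.05, against 4.87% of all genes. DESeq2 and limma-voom also called 0 members, with 10 and 11 at an unadjusted p under 0.05. The median log2 difference of the members was -0.02, and a typical 95% interval for 1 member reached 0.24 to either side of its estimate. An estimate smaller than that in a typical member could not be told from 0 with 3 libraries a group. The interval is not adjusted for the number of genes tested, so larger changes could also go uncalled. In bulk RNA, fewer cells with a transcript and less of it per cell cannot be told apart.

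The ZNF genes with the smallest unadjusted p in the libraries labelled input differed by small amounts. ZNF703 had 115, 110 and 117 CPM in OAA and 104, 83.8 and 99.9 CPM in CON, a difference of 0.25 ± 0.08 on the log2 scale (SE, adjusted p = 0.929 by edgeR). The 3 OAA values lay above the 3 CON values. ZNF367 had 4.96, 5.6 and 6.54 CPM in OAA and 7.52, 8.83 and 10.6 CPM in CON, a difference of -0.66 ± 0.22. ZNF580 had 22.7, 24.9 and 23.3 CPM in OAA and 18.0, 17.4 and 19.9 CPM in CON, a difference of 0.36. The groups of both genes were apart as well, which the choice by small p favours. ZNF787 (0.23), ZNF658 (-0.29), ZNF451 (-0.16), ZNF330 (-0.17) and ZNF454 (-0.30) came next, each with an adjusted p of 0.929. ZNF217 differed by -0.05 ± 0.05, with 618, 601 and 602 CPM in OAA and 629, 631 and 619 CPM in CON. ZNF281 differed by -0.05, ZNF148 by -0.10, ZNF598 by 0.02, ZNF622 by 0.16 and ZNF207 by -0.11.

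In the libraries labelled IP, 0 of 169 members passed, and 4 (2.37%) had an unadjusted p under 0.05, against 3.65% of 8138 genes, with 1 by DESeq2 and 4 by limma-voom and 0 called by either. In the FPKM values of the same libraries, 0 of 148 passed limma's test on log2(FPKM + 1), and 5 (3.38%) had an unadjusted p under 0.05, against 3.31% of 10763 genes. Several genes were near the top of both, which share their libraries. ZNF180, a KRAB member, had 14.5, 17.5 and 18.2 CPM in OAA and 12.6, 12.7 and 9.24 CPM in CON (0.53 ± 0.23 SE, adjusted p = 1.00 by edgeR), and 1.12, 1.23 and 1.20 FPKM in OAA and 1.01, 0.697 and 0.651 FPKM in CON (0.29 ± 0.11 SE). ZNF689, a KRAB member, had 22.8, 22.2 and 17.4 CPM in OAA and 26.1, 29.0 and 29.3 CPM in CON (-0.43), with a difference of -0.23 in FPKM. ZNF396 differed by -0.31 in CPM and -0.27 in FPKM. In these 3 genes the OAA and CON libraries did not overlap on either scale. All 3 were chosen by small p, which favours such separation, and the share of all genes without overlap was not counted.

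The others of this ranking were ZNF331 (-0.95, under 5 CPM), ZNF521 (-0.42), ZNF341 (0.72), ZNF488 (-0.72) and ZNF639 (-0.15) in peak reads, and ZNF688 (-0.29), ZNF768 (-0.16), ZNF131 (-0.17), ZNF271 (-0.21) and ZNF639 (-0.14) in FPKM. ZNF688 had 3.35, 2.77 and 2.89 FPKM in OAA and 4.32, 3.48 and 3.93 FPKM in CON. All had an adjusted p of 1.00. Without OAA labelled IP replicate 3, 12 of 170 members had an unadjusted p under 0.05 in peak reads and 15 of 147 in FPKM, against 11.8% and 16.5% of all genes. In that setting 44 genes were called in peak reads, 0 of them members. Without OAA labelled input replicate 3, 17 of 188 had one in the libraries labelled input, against 8.04% of all genes, and 0 were called.

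The change of the peak ratio with OAA was not called in any of 188 members, and 7 (3.72%) had an unadjusted p under 0.05, against 3.73% of 9097 genes. DESeq2 and limma-voom called 0 as well, with 6 and 5 at an unadjusted p under 0.05. The median change was -0.00, with a typical 95% interval of 0.42 to either side. ZNF180 had the smallest p, with a change of -0.75 ± 0.24 (SE, adjusted p = 1.00 by edgeR). It had 27.0, 20.5 and 22.5 CPM in OAA libraries labelled input and 13.9, 16.8 and 17.6 CPM in OAA libraries labelled IP, against 26.2, 26.5 and 28.6 CPM and 12.1, 12.2 and 8.88 CPM in CON. ZNF488 (1.22), ZNF277 (-0.58), ZNF787 (0.43), ZNF689 (0.47), ZNF521 (0.46), ZNF784 (0.46) and ZNF527 (1.24) followed, each with an adjusted p of 1.00. ZNF277 had 9.03, 9.76 and 11.6 CPM in OAA libraries labelled input and 45.3, 51.5 and 54.2 CPM in OAA libraries labelled IP, against 15.6, 11.9 and 11.9 CPM and 48.0, 42.7 and 40.1 CPM in CON. None of the 15, 9 and 11 members in the lists by role was called in any comparison of OAA with CON, and neither was any gene of the KRAB partner list or of the ZBTB, ZSCAN, ZKSCAN and ZFP families.

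**Figure D5:**
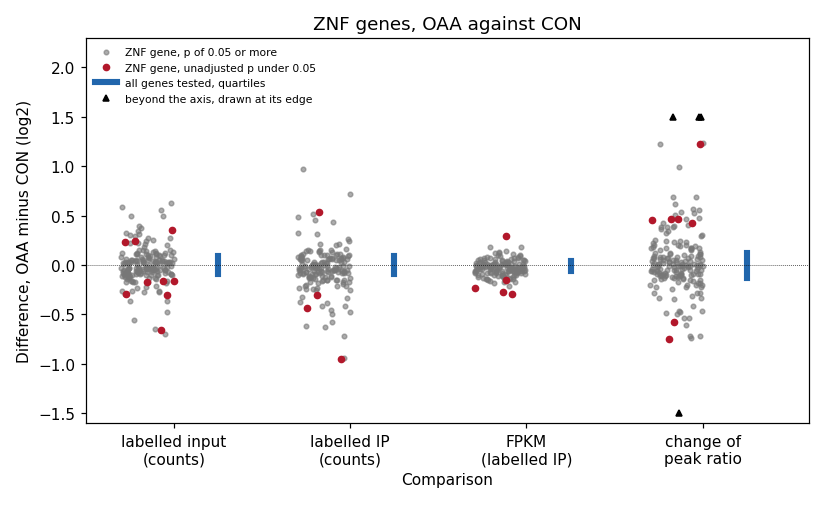
Log2 difference, OAA minus CON (vertical axis), of each ZNF gene in 4 comparisons (horizontal axis), in red where the unadjusted p was under 0.05 (9, 4, 5 and 7 genes), with the quartiles of all genes tested as blue bars. In all 4 comparisons the members lie around 0, and 4 members with few reads fall beyond the axis in the change of the ratio.

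The authors' deposited table gives a log2 ratio per peak and treatment and a p-value for their difference. In the authors' deposited table the median log2 ratio of the 605 ZNF peaks was 4.59 in OAA and 4.47 in CON, against 4.07 in OAA and 3.99 in CON over all single-gene peaks. These values are not on the scale used above, where the median of all single-gene peaks tested in CON was 0.04. A peak called lower above is lower relative to other peaks. By the authors' deposited table, 22 ZNF peaks (3.64%) had an unadjusted p under 0.05 for OAA against CON, against 2.69% of all single-gene peaks, and the smallest adjusted p was 1.00.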

How the data were processed

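IPEC-J2 cells under 2 treatments gave 12 libraries. The submitters' processing notes name Bowtie2 and HISAT2. No version, role or genome build is given in the sources used here. Per the file headers, the deposited peak table holds read counts per merged peak, log2 ratios and p-values of the authors, and their −log10 values, which were not used. The deposited gene table holds FPKM, scaled to reads and transcript length, of 6 libraries. Each library's column could be tied to a sample (0 unmatched).

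Peaks listed under 1 gene were used, singly and summed per gene. Counts were compared with edgeR 4.0.16 in R 4.3.3 (quasi-likelihood F test, TMM, filtering by expression, Benjamini-Hochberg over all genes or peaks), and log2(FPKM + 1) with limma 3.58.1, for genes at 1 FPKM or more in 3 libraries. DESeq2 1.42.0, limma-voom, other scaling and filters, a replicate block and leaving out single libraries were alternatives. The tests were tested on simulated data. CPM are scaled within each comparison, and apart for genes and peaks, so a library's value differs slightly between comparisons and more between genes and peaks. Intervals cover 95%.

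The members and all lists were chosen with earlier results of these data known. Named genes were the 10 highest and 10 lowest called ratios in CON (5 CPM or more in the higher group, no overlap), the 8 smallest p where fewer than 5 were called, the 8 highest FPKM, the 8 highest and 4 lowest called peaks, members of role lists, and genes of the partner list. Genes of other families, of clusters and of shared symbols are named to account for counts.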

Additional observations from a re-analysis of the deposited data

How the results depend on the processing

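With scaling by library size alone, the median ratio of all genes moved by -0.12 in CON and -0.09 in OAA, the median ratio of the ZNF genes in CON was 0.65 (0.77 with TMM), and 126 ZNF peaks were called lower (81 with TMM). The shares of all peaks called under the alternatives are not given here. Taken over peaks instead of genes, the median ratio of the members with TMM was 0.55. Leaving out each library in turn gave 138 to 145 ZNF genes called in the ratio in CON (120 to 125 higher, 18 to 20 lower), 132 to 147 in OAA (116 to 128 higher, 16 to 20 lower), 331 to 341 ZNF peaks (247 to 268 higher, 69 to 84 lower) and 0 in each comparison of OAA with CON. Over all genes, the gene fits without 1 library called 6633 to 6806 in CON and 6421 to 6895 in OAA, in either direction. DESeq2 called 123 members higher and 19 lower in CON, limma-voom 116 and 19, and a fit without filter 127 and 19 of all 188. In either direction, DESeq2 called 6832 and limma-voom 6780 of all 8936 genes, and the fit without filter 7149 of 9325. A replicate block called 6961 of 8936 genes in CON and 6938 of 8979 in OAA. Members at 1 FPKM or more in 3 libraries, an alternative chosen after seeing the data, were higher in 96 and lower in 19 of 147. The share of all genes under that same limit is not given here. Of all genes from 1 to under 5 FPKM, 55.9% were higher and 14.4% lower, and at 5 FPKM or more 30.1% and 51.5%. Same-numbered libraries did not deviate together (correlations of -0.07 to 0.10), so the numbers are not shown to pair them. With the replicate block, 124 ZNF genes were higher and 19 lower in CON, 128 and 21 in OAA, 268 ZNF peaks were higher and 80 lower, and 0 were called in each comparison of OAA with CON, also with a block by culture added after seeing the data. Of 975 values of named genes under an alternative, 968 kept their direction and side of the threshold, 6 lost the call (5 of ZNF451, 1 of ZNF687 with library size alone) and 1, ZNF207, gained it. The depth of the libraries labelled IP limits members with few reads.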
